A study of Mus musculus with 6 samples.

Results

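The 51 genes described here encode the transcription factors of the MYC network and the proteins with which cells make ribosomes, along with a pair of enzymes of polyamine synthesis that are textbook MYC targets. They were taken by symbol from a list that was chosen with earlier results of these data known. All 51 were found among the 47643 genes of the deposited count table. All 51 were also among the 15111 genes tested, so none was lost to the filter on low counts. By role they comprise 6 MYC network factors, 6 genes of RNA polymerase I and its initiation factors, 9 proteins of small nucleolar ribonucleoprotein particles (snoRNPs), 13 factors of small subunit processing, 12 of large subunit processing, 3 nucleolar chaperones and 2 polyamine enzymes.

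RNA with a poly(A) tail was sequenced from mast cells sorted from mouse skin, in 3 libraries from embryos at E16.5 and 3 from adults. All mice carried Cdh5CreERT2, a tamoxifen-inducible Cre recombinase under the promoter of the endothelial gene Cdh5, and had received 4-hydroxytamoxifen at E7.5. The embryonic group (titled PRIM) is called hemogenic endothelium derived, from the yolk sac, and was sorted as CD45+ F4/80- CD64- ckit+ ST2+. The adult group (titled DEF) is described as definitive and was sorted as CD45+ F4/80- CD64- ckit+ Fcer1+, and the epidermis of adult skin was first taken off with an additional Dispase digestion. The labels do not say whether the lineage label entered the sort, what the exact adult age was, or whether a library came from 1 animal or a pool. Age, described origin, last gate marker and tissue digestion therefore change together and cannot be told apart. Whether replicates were separate animals is not given either, so the p-values cover the spread among the 6 libraries alone, and that spread may be technical.

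MYC is a transcription factor that pairs with MAX and binds the E-box sequence CACGTG to raise transcription. Proteins of the MXD family and MNT pair with MAX too, bind the same sequence and repress. Among the best known targets of MYC are the genes for ribosome production in the nucleolus, where RNA polymerase I makes the precursor of ribosomal RNA, snoRNPs modify it, and large sets of assembly factors cut, fold and package it into the small and large subunits. Dividing cells need many new ribosomes, and mast cells are long-lived granule cells whose division slows as they mature.

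Levels are given in CPM, a gene's counts as a share of the library's total after scaling by the trimmed mean of M-values, in the order of replicates 1, 2 and 3. Folds come from edgeR's quasi-likelihood model of embryonic against adult, with p-values adjusted by Benjamini-Hochberg over all 15111 genes, and a gene was called when that value was under 0.05. Between 34122162 and 49813523 counts per library fell in genes, so 3 counts, taken as the floor, equal 0.0603 to 0.0850 CPM. The mast cell genes Kit (means of 4968 and 5392 CPM in the embryonic and the adult group) and Cpa3 (38759 and 12887 CPM) were abundant in both groups. Fcer1a, for the IgE receptor chain used in the adult gate, averaged 5.84 and 762 CPM. All 11 mast cell markers summed to 123800 to 135000 CPM over the embryonic and 61920 to 64740 CPM over the adult libraries. Of these 11, 6 were called toward embryonic cells and 3, Fcer1a, Ms4a2 and Mcpt4, toward adult cells. Marker genes of other cells were low beside Kit and Cpa3, but several of their sums exceeded Fcer1a in embryonic cells. Macrophage markers summed to 15.3 to 42.5 CPM over the embryonic and 90.5 to 112 CPM over the adult libraries, with 8 of 9 tested higher in adult. Dendritic and Langerhans cell markers summed to 4.30 to 6.59 and 38.8 to 95.7 CPM, with 5 of 7 higher in adult, and T and innate lymphoid cell markers to 16.3 to 21.5 and 88.8 to 102 CPM. The adult sum of the last list was mostly Il7r (mean 87.2 CPM), and of its 4 tested genes Il7r and Cd4 were higher in adult and Cd3g and Trac in embryonic cells. Erythroid markers, 5 of 5 tested higher in embryonic, summed to 139 to 323 and 3.29 to 10.4 CPM, and keratinocyte markers to 55.6 to 523 and 29.1 to 53.3 CPM with the highest value in embryonic replicate 3 and 2 of 5 higher in embryonic. Fibroblast markers summed to 552 to 683 and 91.4 to 504 CPM, with 1 of 6 called, Dcn, which was higher in adult cells (21.6 and 102 CPM, adjusted p = 0.031). Endothelial markers summed to 25.2 to 31.6 and 3.47 to 6.98 CPM, 3 of 5 higher in embryonic, melanocyte markers to 29.02 to 46.6 and 3.55 to 12.9 CPM, 2 of 4 higher in embryonic, and B cell markers to at most 0.658 CPM with Ms4a1 and Pax5 at 0 counts in both groups. Both basophil markers together were at 413 to 454 and 351 to 458 CPM. Neutrophil markers stayed at 0.0430 to 0.368 and 0.115 to 0.603 CPM, with Elane at 0 counts in both groups and S100a9 and Ly6g at 0 in the embryonic group. No member of the ribosome or MYC lists is among these markers, and the part of such cells in the results was not tested. In bulk libraries a lower share of cells that express a gene and less RNA per cell cannot be told apart.

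Of the 43 genes of ribosome production 26 were higher in embryonic mast cells (60.5%) and 6 in adult ones (14.0%), with a median of 1.5-fold toward embryonic, while Myc itself was 6.72-fold higher in adult cells. Of the 51 genes 29 were higher in embryonic cells (56.9%) and 8 in adult cells (15.7%), and 14 were not called. Over all 15111 tested genes 63.0% were called, 31.2% toward embryonic and 31.7% toward adult cells, and among the 8934 genes that averaged at least 10 CPM in a group the shares were 39.0% and 34.2%. The median log2 fold change of the 51 genes was 0.52, beside -0.02 for all tested genes. Changes of at least 2-fold were called for 14 genes toward embryonic (27.5%, against 17.2% of all genes) and for 3 toward adult cells, where the share of all genes was 20.8%. Without the ribosome genes that share over 20% of their sequence with other genes, 36 were left, of which 21 were called toward embryonic and 5 toward adult cells. The libraries of the groups did not overlap for 40 of the 51 (78.4%), beside 70.0% of all tested genes. The count toward embryonic was 28 to 30 in 15 other fits, and 28 of the 29 genes were called in every one of those. The count toward adult rested on single libraries more: it was 4 without embryonic replicate 3, 5 without embryonic replicate 2 and 5 without adult replicate 2, and only Myc, Nop56, Nop14 and Rrp12 were called in all 15. The listed cell division genes moved with the group as well: 17 of 17 were called toward embryonic cells, their sum being 2007 to 2736 CPM in embryos and 393 to 497 CPM in adults, and their part in the ribosome gene differences was not tested.

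**Figure D1:**
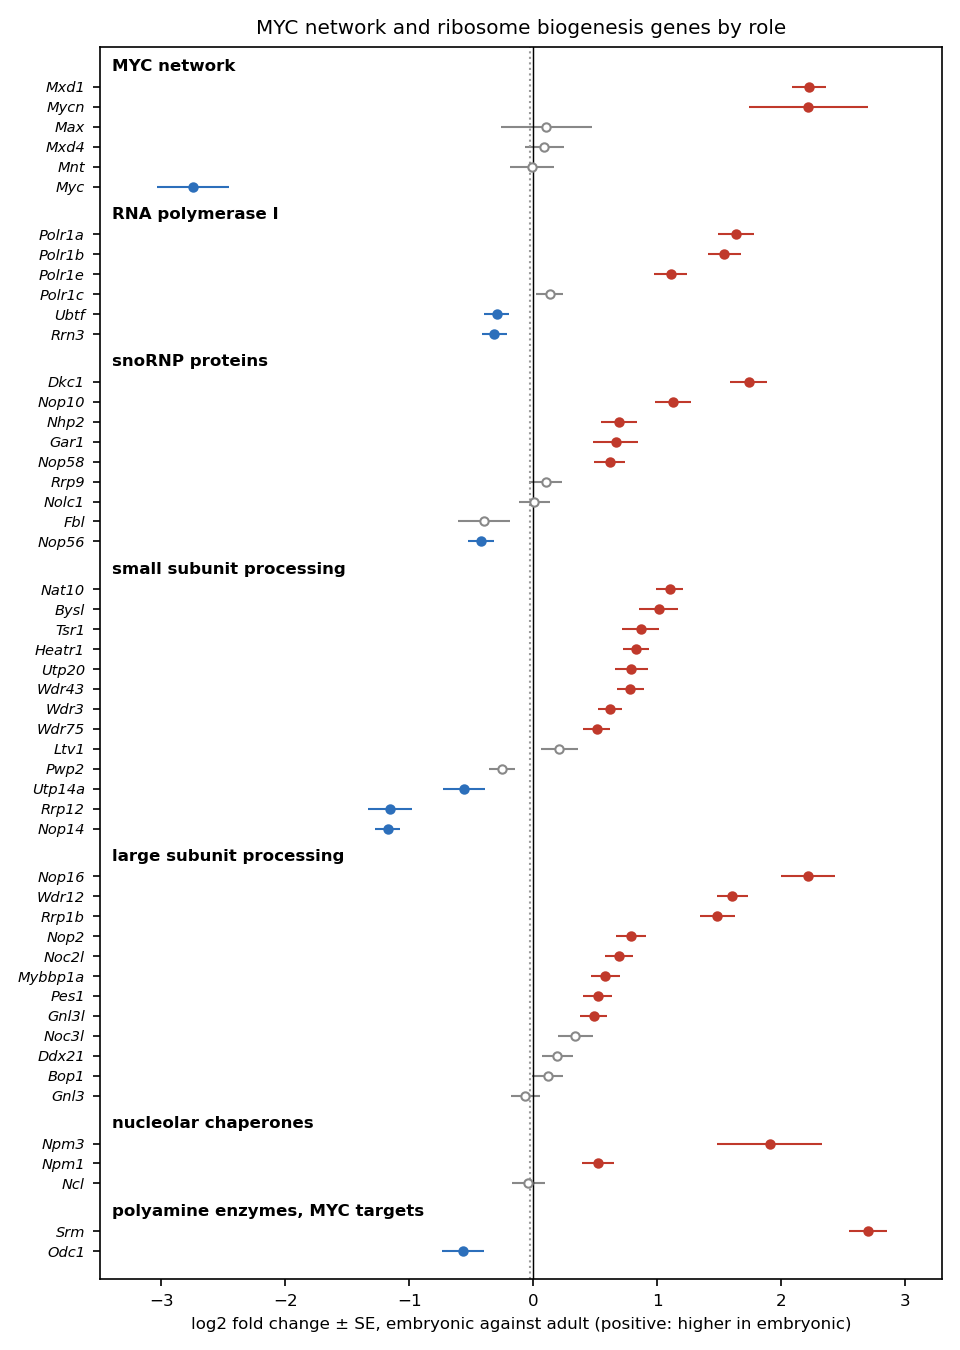
Fitted log2 fold change (horizontal axis, embryonic against adult, positive values higher in embryonic cells) with its standard error for each of the 51 genes, grouped by role. Filled red points are called higher in embryonic and filled blue points higher in adult cells, open grey points are not called, and the dotted line is the median of all tested genes at -0.02. Points of the large subunit group lie at or to the right of -0.06, whereas Myc lies at -2.75.

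In the MYC network Myc was higher in adult cells, Mxd1 and Mycn were higher in embryonic cells, and Max, Mxd4 and Mnt were not called. Myc had the largest log2 fold change of the 51 genes in either direction. Myc (ENSMUSG00000022346.14, chromosome 15, 61985341 to 61990374 in GRCm38) was at 13.4, 18.7 and 29.6 CPM in the embryonic libraries and 126, 125 and 163 CPM in those of adults. Every adult library held more than 4 times the level of the highest embryonic one, and embryonic replicate 3 was the highest of its group. The log2 fold change was -2.75 ± 0.29 (SE), 6.72-fold higher in adult cells (adjusted p = 0.00013). Mxd1 (ENSMUSG00000001156.9, chromosome 6, 86647042 to 86669161), a repressor that competes with MYC for MAX and is known from differentiating cells, showed the reverse. It was at 779.9, 973 and 1089.9 CPM in the embryonic libraries against 206, 215 and 185 CPM in the adult ones, 4.69-fold higher in embryonic cells (log2 fold change 2.23 ± 0.14 SE, adjusted p = 6.1e-07), with no overlap.

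Mycn (chromosome 12, 12936096 to 12941914), the MYC relative typical of embryonic tissue, was the least abundant member per exon length in both groups. It was at 1.65, 1.53 and 3.82 CPM in the embryonic libraries against 0.483, 0.415 and 0.605 CPM in the adult ones, 4.66-fold higher in embryonic cells (adjusted p = 0.0025). Embryonic replicate 3 held the highest value, and without it the log2 fold change was 1.71 in place of 2.22. Max, the shared partner, was at 24.1, 9.41 and 17.9 CPM in the embryonic libraries against 12.9, 22.2 and 12.7 CPM in the adult ones. These ranges overlapped and Max was not called (adjusted p = 0.81), with a spread between replicates larger than the difference between groups. Mxd4, another repressor of the family, was at 54.8, 35.7 and 53.4 against 45.9, 42.7 and 46.8 CPM (adjusted p = 0.64). Mnt, a widely expressed repressor, was at 10.8, 10.8 and 10.4 against 9.03, 9.92 and 13.3 CPM (adjusted p = 0.96). Neither was called in this fit, and Mxd4 passed without embryonic replicate 2, the lowest of its group, at a log2 fold change of 0.31 (edgeR adjusted p = 0.044, against 0.43 to 0.98 in the other 14).

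**Figure D2:**
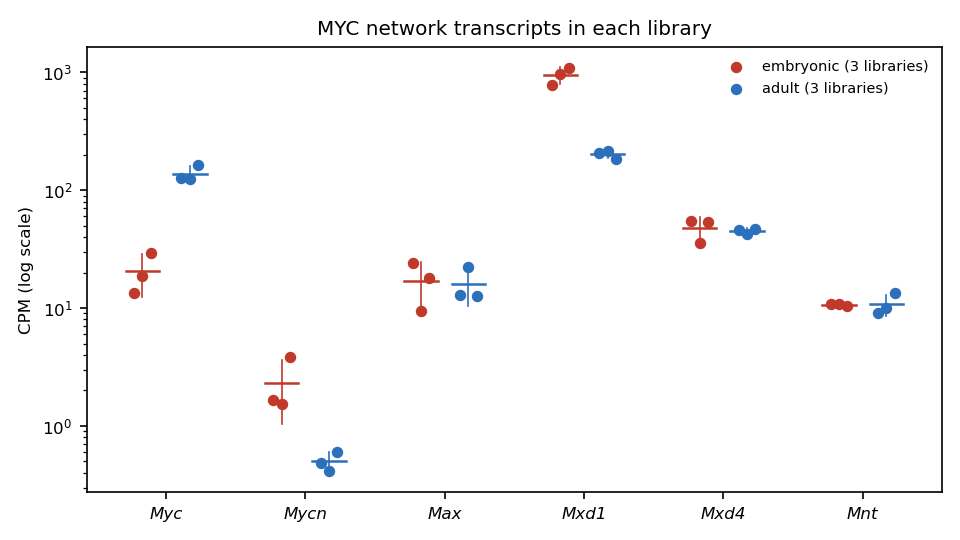
CPM (log scale) of the 6 MYC network genes in each embryonic (red) and adult (blue) library, with a horizontal line at each group mean and a vertical line for the SD over 3 libraries. Myc is higher in all 3 adult libraries, at 125 to 163 CPM against 13.4 to 29.6 CPM, Mxd1 and Mycn are higher in all 3 embryonic libraries, and the points of Max, Mxd4 and Mnt overlap between groups.

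Per exon length, the order of Myc and Mxd1 turned around between the groups. By CPM it did not, and Mxd1 was above Myc in every library of both groups. On the scale of RPKM, which is CPM divided by the exon length in kilobases, Mxd1 was at 110.3, 138 and 154 and Myc at 4.84, 6.77 and 10.7 in the embryonic libraries, a ratio of Mxd1 to Myc of 22.8, 20.3 and 14.4. In the adult libraries Mxd1 was at 29.1, 30.4 and 26.2 and Myc at 45.7, 45.4 and 58.9 RPKM, and the ratio was 0.636, 0.670 and 0.445. Mxd1 thus had the highest RPKM of the 51 genes in embryonic cells and ranked 11 in adult cells, while Myc ranked 38 in embryonic and 2 in adult cells, next to Gnl3, whose 53.6, 51.2 and 46.02 RPKM overlapped those of Myc. Max averaged 8.54 and 7.94 RPKM, so that Myc exceeded its partner 4.10 to 9.30 times in adult libraries and stood at 0.403 to 1.44 times Max in embryonic ones. The deposited exon length counts every annotated exon of a gene, so RPKM understates genes with long rare exons. For Mxd1 it was 7072 bases, against 4666 in its longest coding transcript in GENCODE M21. For Myc these were 2767 and 2338 bases, so the ratio of Mxd1 to Myc depends on the length used.

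Myc belongs to the genes that many cells induce within minutes of stimulation, and other transcripts of this kind were measured beside it. Of 17 immediate early and dissociation response genes, 10 were higher in adult and 1, Btg2, in embryonic cells, that is 58.8% and 5.88% beside 31.7% and 31.2% of all tested genes. The share called in either direction, 64.7%, was near the 63.0% of all genes. Their summed level was 15420, 18450 and 31290 CPM in the embryonic and 39510, 48000 and 51850 CPM in the adult libraries. The embryonic libraries had the same order by this sum and by Myc. In adults the highest of both was replicate 3, but below it the order did not hold, with Myc at 126.4 CPM in replicate 1 and 125.5 CPM in replicate 2. Fos averaged 761 CPM in embryos and 4235 CPM in adults (adjusted p = 0.0027), Egr1 1578 and 6490.5 CPM (adjusted p = 4.2e-05) and Atf3 10.9 and 1135 CPM (adjusted p = 1.1e-05). These 3 were picked after their values were seen, as the best known of the list, and all were higher in adult cells. The 6 genes not called were Jun (adjusted p = 0.082), Ier3 (0.080), Hspa1a (0.23), Hspa1b (0.27), Ier2 (0.24) and Zfp36 (0.89). The part of this response, and of the additional digestion of adult skin, in the Myc difference was not tested.

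Promoters were searched for the E-box CACGTG, which reads the same on both strands, in the 250 bases upstream of each start in the RefSeq table of GRCm38.p6. Of the 51 genes 44 had an entry, and 4 of these (9.09%) held the motif. Myc, Srm, Rrp12, Fbl, Bop1, Gnl3l and Npm1 had no entry and were not searched. The share was 9.57% of 10998 tested genes and 6.86% of all 27025 genes with an entry, so the members were close to the tested genes. The 4 were Nop2, Rrn3, Mxd4 and Mnt. Among members with an entry the motif was present in 1 of 26 called higher in embryonic, 1 of 6 called higher in adult and 2 of 12 not called. Among all tested genes with an entry it was in 10.2% of those called higher in embryonic and 9.54% of those higher in adult. In each direction the members' share rests on 1 gene. A match describes the letters in this window, and motifs within introns or further away were not searched. The Rrn3 call was lost in several other fits, as given below. The promoters of the 2 called genes are shown, Nop2 higher in embryonic and Rrn3 in adult cells. Both are on the plus strand, at chr6:125131633-125131882 for Nop2 (1.73-fold higher in embryonic cells, with 85.9, 75.4 and 77.97 against 50.5, 49.02 and 38.9 CPM, adjusted p = 0.00029) and at chr16:13780449-13780698 for Rrn3, written 5′ to 3′ with CACGTG in capitals. Between the motif nearest to the start and the start itself lie 54 bases in Nop2 and 42 bases in Rrn3, which holds the motif 2 times.
Nop2: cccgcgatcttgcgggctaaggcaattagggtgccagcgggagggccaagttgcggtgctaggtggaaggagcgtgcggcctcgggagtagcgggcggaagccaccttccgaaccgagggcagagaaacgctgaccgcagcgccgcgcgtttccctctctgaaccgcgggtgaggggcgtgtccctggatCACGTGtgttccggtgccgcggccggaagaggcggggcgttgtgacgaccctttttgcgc
Rrn3: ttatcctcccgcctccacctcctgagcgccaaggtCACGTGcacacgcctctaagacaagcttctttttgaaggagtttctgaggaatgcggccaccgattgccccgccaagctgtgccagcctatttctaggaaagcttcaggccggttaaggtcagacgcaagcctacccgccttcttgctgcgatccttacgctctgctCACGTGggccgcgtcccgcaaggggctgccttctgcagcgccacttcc

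RNA polymerase I, which makes ribosomal RNA, had 3 of the 4 listed subunits called toward embryonic cells. The initiation factors Rrn3 and Ubtf were called toward adult cells. Over these 6 genes the shares were 50% and 33.3%, beside 31.2% and 31.7% of all tested genes. Polr1a (ENSMUSG00000049553.11, chromosome 6, 71909053 to 71984935), the largest subunit, was at 55.8, 55.3 and 40.8 CPM in the embryonic libraries against 16.7, 17.5 and 14.7 CPM in the adult ones, 3.11-fold higher in embryonic cells (adjusted p = 7.7e-06). Polr1b, the second largest subunit (chromosome 2, 129100995 to 129126594), was at 59.3, 48.8 and 46.9 against 17.2, 19.8 and 16.2 CPM, 2.91-fold higher (adjusted p = 5.9e-06). For both, every embryonic library held more than 2 times the level of any adult one. Polr1e, a subunit of the polymerase that acts in initiation and elongation, was at 47.2, 38.02 and 37.9 against 17.1, 20.7 and 19.3 CPM, 2.16-fold higher (adjusted p = 5.5e-05). Polr1c, which RNA polymerase III uses as well, was at 33.8, 29.8 and 29.1 against 29.1, 28.1 and 27.3 CPM and was not called (adjusted p = 0.32).

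Rrn3 and Ubtf went the other way by small amounts, and further initiation factors had no common direction: Taf1b was 1.64-fold higher in embryonic cells (adjusted p = 0.00042), Taf1c 1.44-fold and Taf1d 2.25-fold higher in adult cells (adjusted p = 0.0057 and 0.0010), and Taf1a was not called (adjusted p = 0.75). Rrn3, which brings the polymerase to the ribosomal DNA promoter and whose own upstream sequence is printed above, was at 51.8, 48.5 and 47.5 CPM in the embryonic libraries against 55.99, 62.3 and 65.4 CPM in the adult ones, 1.24-fold higher in adult cells (adjusted p = 0.021). Ubtf, the factor that keeps ribosomal DNA open, was at 136, 125 and 112 against 149, 152 and 158 CPM, 1.23-fold higher in adult cells (adjusted p = 0.026). The libraries did not overlap for either gene, but both calls were lost without embryonic replicate 2 or 3 and without adult replicate 2 or 3. They were also lost with both replicates numbered 3 left out and with all genes of at least 1 count kept, and Ubtf with the replicate block. The adjusted p over all 15 other fits ran from 0.011 to 0.16 for Rrn3 and from 0.013 to 0.19 for Ubtf.

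Among the proteins of snoRNPs, those of the H/ACA class were higher in embryonic cells and those of the box C/D class were divided. H/ACA particles guide the conversion of uridine to pseudouridine, and C/D particles guide methylation of the ribose. Dkc1 (ENSMUSG00000031403.14, chromosome X, 75095854 to 75109777), the pseudouridine synthase that telomerase also contains, was at 87.1, 67.3 and 59.7 CPM in the embryonic libraries against 22.8, 21.3 and 19.9 CPM in the adult ones, 3.34-fold higher in embryonic cells (adjusted p = 5.2e-06). Nop10, a small core protein of the same particle, was at 39.9, 30.96 and 42.6 against 15.8, 17.3 and 18.8 CPM, 2.19-fold higher (adjusted p = 8.4e-05). Its partners Nhp2 and Gar1 were 1.62-fold and 1.59-fold higher, so that all 4 H/ACA core proteins were called in the same direction, Gar1 no longer when both replicates numbered 3 were left out (adjusted p = 0.089, 0.0034 to 0.033 in the other 14 fits).

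Nop58, a scaffold protein of C/D particles, was at 119, 121 and 96.6 CPM in the embryonic libraries against 82.04, 67.9 and 70.2 CPM in the adult ones, 1.53-fold higher in embryonic cells (adjusted p = 0.0014). Its paralog and partner Nop56 was at 81.4, 93.5 and 88.3 against 117, 107 and 128 CPM, 1.34-fold higher in adult cells (adjusted p = 0.0057), with no overlap. The pair that sits in the same particle thus moved in opposite directions. Fbl, the methyltransferase fibrillarin, was at 4.60, 4.62 and 4.28 against 6.76, 5.42 and 5.58 CPM and was not called (adjusted p = 0.12). Of the 50-base words of its longest coding transcript in GENCODE M21, 73.0% also occur in transcripts of other genes, and for Nop56 the share was 37.6%, so that reads from there could align to several places and go uncounted. Rrp9, a protein of the U3 snoRNP, was at 36.02, 33.6 and 29.4 against 35.1, 30.1 and 27.03 CPM (adjusted p = 0.52). Nolc1, a chaperone of snoRNPs, was at 124, 116 and 89.00 against 109, 111 and 108 CPM (adjusted p = 0.96). Both overlapped between groups and were not called.

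Of 13 factors of small subunit processing 8 (61.5%) were called toward embryonic and 3 (23.1%) toward adult cells, and 2 were not called. The shares of all tested genes were 31.2% and 31.7%. Nat10 (chromosome 2, 103721256 to 103761270), the RNA cytidine acetyltransferase, was at 57.2, 54.5 and 52.1 CPM in the embryonic libraries against 23.1, 27.5 and 25.8 CPM in the adult ones, 2.14-fold higher in embryonic cells (adjusted p = 1.5e-05). Heatr1, a factor that links transcription of ribosomal RNA to its processing, was at 123, 135 and 109 against 70.96, 66.1 and 69.6 CPM, 1.78-fold higher (adjusted p = 7.8e-05). The other 6 called toward embryonic, the WD repeat proteins Wdr43, Wdr3 and Wdr75 and the factors Bysl, Utp20 and Tsr1, were 1.43-fold to 2.02-fold higher, and none overlapped between groups. Tsr1 shares 32.3% of its exon bases with Srr, and reads over both genes were not counted.

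Nop14 (ENSMUSG00000036693.12, chromosome 5, 34638536 to 34660148), a component of the same early processing complex, had the smallest adjusted p of the small subunit group and the opposite direction. It was at 34.04, 37.3 and 34.4 CPM in the embryonic libraries against 73.1, 84.3 and 80.9 CPM in the adult ones, 2.25-fold higher in adult cells (adjusted p = 6.1e-06). Rrp12, which helps subunits leave the nucleus, was at 25.3, 23.03 and 20.3 against 48.98, 39.7 and 64.5 CPM, 2.23-fold higher in adult cells (adjusted p = 0.00032), with its highest value in adult replicate 3. Both calls held in all 15 other fits. Utp14a, an activator of the helicase that removes U3 RNA, was at 11.9, 13.3 and 8.95 against 17.4, 17.6 and 15.3 CPM, 1.47-fold higher in adult cells (adjusted p = 0.016), and this call was lost without embryonic replicate 3 (adjusted p = 0.080) or adult replicate 2 (adjusted p = 0.052), with 0.010 to 0.049 in the other 13 fits. Pwp2, a WD repeat protein of the early complex, was at 41.9, 42.6 and 36.2 against 49.3, 49.1 and 45.4 CPM. Its groups did not overlap, yet it was not called (adjusted p = 0.062). It was called toward adult cells with upper quartile scaling (adjusted p = 0.042) and when at least 1 CPM was required in 3 libraries (adjusted p = 0.040). Over all 15 other fits the adjusted p ran from 0.040 to 0.35. Ltv1, a late export and assembly factor, was at 51.03, 74.9 and 54.5 against 50.4, 55.99 and 49.3 CPM and was not called (adjusted p = 0.23).

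Large subunit processing was the larger set with no gene higher in adult cells. Of its 12 genes 8 (66.7%) were higher in embryonic cells and 4 were not called. Over all tested genes 31.2% were called toward embryonic and 31.7% toward adult cells. Nop16 (ENSMUSG00000025869.11, chromosome 13, 54584185 to 54590090), a nucleolar assembly protein, was at 43.9, 42.2 and 38.97 CPM in the embryonic libraries against 11.9, 8.70 and 6.11 CPM in the adult ones, 4.66-fold higher in embryonic cells (adjusted p = 2.3e-05). Wdr12, a WD repeat protein of the same pathway (chromosome 1, 60069785 to 60098645), was at 47.5, 41.8 and 39.2 against 14.6, 12.9 and 14.6 CPM, 3.05-fold higher (adjusted p = 2.6e-06). Rrp1b, a nucleolar protein, was at 17.96, 19.6 and 19.8 against 7.44, 6.55 and 6.42 CPM, 2.80-fold higher (adjusted p = 1.2e-05). All 3 had embryonic libraries at more than 2 times any adult library.

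Wdr12 works in a complex with Pes1 and Bop1, of which Pes1 was called in the same direction and Bop1 was not called. Pes1 was 1.43-fold higher in embryonic cells, with a mean of 59.4 ± 7.22 against 41.5 ± 1.52 CPM (SD, n = 3; edgeR adjusted p = 0.0026). Bop1 was at 106, 95.1 and 81.8 CPM in the embryonic libraries against 97.8, 83.1 and 79.7 CPM in the adult ones, which overlapped (adjusted p = 0.43). The other called genes were Nop2, an RNA methyltransferase, Noc2l, Mybbp1a and Gnl3l, a nucleolar GTPase, at 1.40-fold to 1.73-fold higher in embryonic cells. Noc2l shares 20.9% of its exon bases with Samd11. Gnl3, nucleostemin, a GTPase related to Gnl3l, was at 78.03, 95.8 and 98.1 against 101, 96.5 and 86.7 CPM and was not called (adjusted p = 0.65). Ddx21, an RNA helicase, was at 149.7, 135 and 111 against 111, 127 and 108 CPM (adjusted p = 0.20), and was called higher in embryonic cells without embryonic replicate 3 (log2 fold change 0.35, adjusted p = 0.026, against 0.10 to 0.47 in the other 14). Noc3l was not called either (adjusted p = 0.052), though its groups did not overlap, and it was called toward embryonic with limma-voom (adjusted p = 0.041) and without adult replicate 3 (adjusted p = 0.047), against 0.054 to 0.16 in the other 13 fits.

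Of the nucleolar chaperones, Ncl, nucleolin, with RPKM ranks of 5 in embryonic and 3 in adult cells among the 51 genes, was not called. It was at 526, 536 and 397 CPM in the embryonic libraries against 453, 510.5 and 537 CPM in the adult ones (adjusted p = 0.81), and embryonic replicate 3 was the lowest of all. Npm1, nucleophosmin, was at 123, 114 and 86.8 against 71.00, 75.4 and 79.2 CPM, 1.44-fold higher in embryonic cells (adjusted p = 0.0062). Npm3, its smaller relative, was at 2.92, 1.47 and 2.17 against 0.442, 0.623 and 0.684 CPM, 3.76-fold higher (adjusted p = 0.0029). The words shared with other genes made up 40.9% for Npm1 and 36.1% for Npm3, so their levels are uncertain, and of the ribosome genes only these, Fbl, Nop56, Tsr1 and Pes1 passed 20%.

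The polyamine enzymes, MYC targets outside the nucleolus, split. Srm (ENSMUSG00000006442.10, chromosome 4, 148591503 to 148594993), spermidine synthase, was at 202, 153 and 156 CPM in the embryonic libraries against 30.4, 25.5 and 22.6 CPM in the adult ones. Each embryonic library held more than 5 times the level of any adult one. It was 6.51-fold higher in embryonic cells, the largest change toward embryonic among the 51 genes (log2 fold change 2.70 ± 0.15 SE, adjusted p = 4.0e-07). Odc1, ornithine decarboxylase, which catalyses the step before it, was at 62.1, 61.6 and 58.1 against 74.1, 76.8 and 118 CPM, 1.48-fold higher in adult cells (adjusted p = 0.017), with the highest value in adult replicate 3, without which the log2 fold change was -0.32 in place of -0.57. The Odc1 call was lost without embryonic replicate 2 or 3 (adjusted p = 0.057 and 0.061) and with both replicates numbered 3 left out (log2 fold change -0.28, adjusted p = 0.075), against 0.00018 to 0.043 in the other 12 fits. Of its words 42.2% occur in other genes. The ratio of Srm to Odc1 by RPKM was 5.18, 3.96 and 4.26 in embryonic and 0.653, 0.528 and 0.304 in adult libraries.

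**Figure D3:**
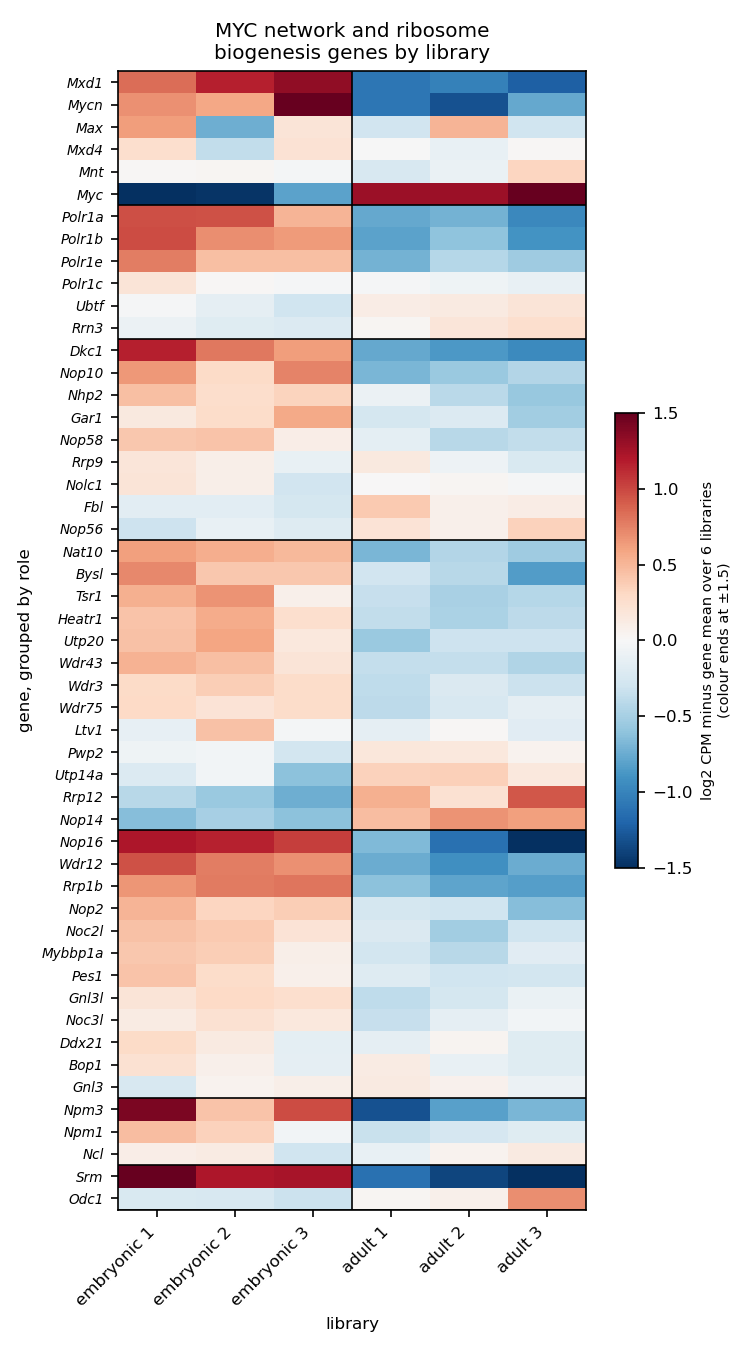
Log2 CPM of each of the 51 genes (rows, grouped by role in the order network, RNA polymerase I, snoRNP, small subunit, large subunit, chaperones, polyamine enzymes) in each of the 6 libraries (columns), relative to the mean of the gene over the libraries. Most rows are red (higher) in the 3 embryonic and blue (lower) in the 3 adult columns, Myc, Nop14 and Rrp12 show the reverse, and embryonic replicate 3 is paler than its group for many ribosome genes.

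Within groups the embryonic libraries varied a little more. The coefficient of variation over 3 libraries had a median of 12.1% in embryonic and 8.80% in adult cells, and was highest for Mycn (55.1%) in embryonic and Max (34.2%) in adult libraries. Of the 45 genes outside the MYC network, embryonic replicate 3 had the lowest embryonic value for 30 and embryonic replicate 1 the highest for 27. Embryonic replicate 3 also had the lowest sum of the cell division list in its group, 2007 CPM against 2556 and 2736, and the highest sum of the immediate early list and of the keratinocyte markers. The part of these lists in the differences was not tested. Without embryonic replicate 3 the median of the 51 genes' log2 fold changes was 0.65 in place of 0.52.

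The rest of the pathway was read from further lists of genes that are not among the 51, 191 of them tested. These lists too were chosen with earlier results of these data known, so their counts are not a separate check. Together 99 (51.8%) were called toward embryonic and 27 (14.1%) toward adult cells, beside the 31.2% and 31.7% of all tested genes. Their median log2 fold change was 0.36. Of 44 small subunit factors 27 were called toward embryonic and 2 toward adult cells. Emg1, a ribosomal RNA methyltransferase, was 1.94-fold higher in embryonic cells (adjusted p = 2.0e-05) and Wdr36 1.80-fold (adjusted p = 6.5e-05), whereas Utp4 was 1.62-fold and Tsr2 1.53-fold higher in adult cells. Exosome subunits and ribosomal RNA exonucleases, which trim the precursor, had 11 of 15 called toward embryonic and 0 toward adult cells, with the smallest adjusted p for C1d (1.82-fold) and Exosc4 (2.10-fold). All 15 had a positive log2 fold change.

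Of 48 large subunit factors 19 (39.6%) were called toward embryonic and 7 (14.6%) toward adult cells. The shares were 31.2% and 31.7% of all tested genes, and 39.0% and 34.2% of those averaging at least 10 CPM in a group. Rpf2 was 2.45-fold and Nvl, an ATPase of subunit maturation, 1.92-fold higher in embryonic cells. Sbds, which prepares the finished large subunit for translation and is mutated in Shwachman-Diamond syndrome, went the other way at 63.6, 79.2 and 71.3 CPM in the embryonic libraries against 265, 299 and 302 CPM in the adult ones, 4.04-fold higher in adult cells (adjusted p = 3.4e-07). Urb1 was 2.09-fold higher in adult cells as well. Further snoRNP proteins and assembly factors had 6 of 10 higher in embryonic cells, with Rpap3 at 2.04-fold and Znhit3 at 1.82-fold, and 1 higher in adult cells, Naf1, at 2.86-fold. Further RNA polymerase I subunits and factors had 6 of 15 (40%) higher in embryonic and 4 (26.7%) in adult cells. Toward embryonic cells the smallest adjusted p were those of Taf1b (1.64-fold) and Ttf1 (1.63-fold). Toward adult cells they were those of Polr2l (3.80-fold, means of 2.04 CPM in embryonic and 7.71 CPM in adult cells) and Taf1d (2.25-fold).

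**Figure D4:**
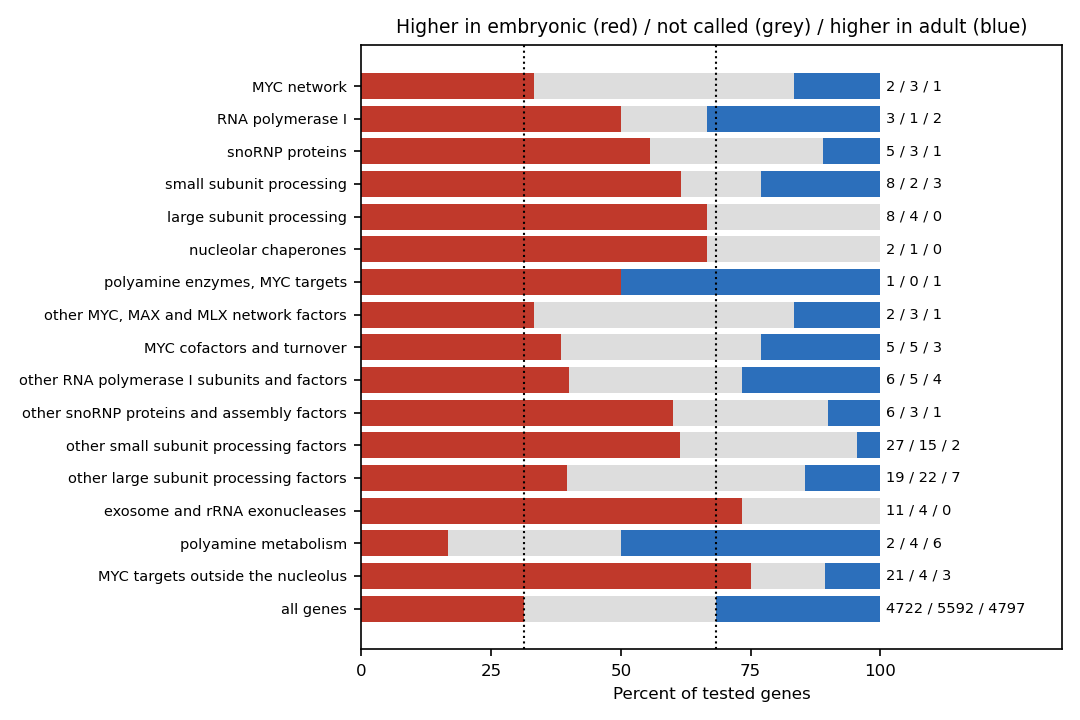
Share of tested genes in each list that were called higher in embryonic cells (red, from the left), not called (grey) and called higher in adult cells (blue, from the right), with the 3 counts in that order at the right. Dotted lines mark the shares of all tested genes, 31.2% on the embryonic and 31.7% on the adult side. Exosome genes and MYC targets outside the nucleolus reach 11 of 15 and 21 of 28 on the embryonic side, and polyamine metabolism reaches 6 of 12 on the adult side.

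MYC targets with roles outside the nucleolus had 21 of 28 (75%) called toward embryonic and 3 (10.7%) toward adult cells. The shares of all tested genes were 31.2% and 31.7%. The log2 fold changes of the listed targets had a median of 1.05. Cdk4, a kinase of cell cycle entry, was at 309 ± 45.98 against 105 ± 1.02 CPM (SD, n = 3), 2.93-fold higher in embryonic cells (edgeR adjusted p = 2.6e-06), and Prmt5, an arginine methyltransferase, was 2.73-fold higher (adjusted p = 2.4e-06). Impdh2, of guanine nucleotide synthesis, was 2.09-fold and Eif4a1, a translation initiation helicase, 1.69-fold higher in adult cells. The list holds genes of nucleotide synthesis and cell cycle entry, which belong to dividing cells too.

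Polyamine metabolism differed in its parts, with 2 of 12 genes (16.7%) called toward embryonic and 6 (50%) toward adult cells. The shares of all tested genes were 31.2% and 31.7%. Sat1, which acetylates polyamines for export and breakdown, was at 56.8, 78.05 and 91.5 CPM in the embryonic libraries against 500.4, 457 and 469 CPM in the adult ones, 6.31-fold higher in adult cells (adjusted p = 1.0e-06). Amd1, which supplies the aminopropyl donor to spermidine synthase, was 3.97-fold higher in adult cells (means of 3.65 CPM in embryonic and 14.5 CPM in adult cells, adjusted p = 1.6e-05). Sequence shared with other genes was not computed for Amd1 or the rest of the further lists. Eif5a, the translation factor that carries the spermidine-derived residue hypusine, was 2.05-fold higher in embryonic cells, with 763 ± 80.2 against 372 ± 36.4 CPM (SD, n = 3; edgeR adjusted p = 3.6e-05), and Smox, spermine oxidase, 2.32-fold higher.

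Other factors of the network and its partners showed no common direction. Of 6 tested MYC, MAX and MLX network factors, Mlx (1.32-fold) and Mxd3 (1.74-fold), an MXD family member of dividing cells, were higher in embryonic cells. Mlxip, a partner of MLX that senses glucose products, was at 38.2, 43.4 and 41.3 CPM in the embryonic libraries against 136, 117 and 121 CPM in the adult ones, 3.03-fold higher in adult cells (adjusted p = 8.5e-07). Of 13 MYC cofactors and turnover genes 5 were higher in embryonic cells, with the smallest adjusted p for the ubiquitin ligase subunit Skp2 (4.01-fold) and the ATPase Ruvbl2 (1.97-fold), and 3 were called toward adult cells, with the smallest adjusted p for Usp36 (1.496-fold), a nucleolar deubiquitinase, and Ep400 (1.28-fold).

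Genes of this kind often carry snoRNA genes in their introns, so that making the protein and the guide RNA is coupled. In GENCODE M21, 8 of the 51 genes contained 22 annotated snoRNA genes on the same strand. Nop56 held 5 and Nop58 4, and Ncl, Gnl3 and Wdr43 held 3 each, with Tsr1 at 2 and Dkc1 and Odc1 at 1. The hosts did not share a direction: Nop58, Wdr43, Tsr1 and Dkc1 were higher in embryonic cells, Nop56 and Odc1 in adult cells, and Ncl and Gnl3 were not called. The Odc1 call was lost in some of the other fits. Shares called toward embryonic and adult cells were 56.9% and 15.7% over the 51 genes and 31.2% and 31.7% over all tested genes. The snoRNAs themselves lack a poly(A) tail and were not analysed here.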

How the data were processed

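Poly(A) RNA of 3 embryonic and 3 adult mast cell libraries was analysed. Per the labels' protocols, full-length cDNA was amplified with the SMART-Seq v4 kit and tagmented with Nextera XT, which does not mark strand. The submitters' processing notes name STAR and the genome build GRCm38, and the version of STAR is not given in the sources used here. The authors deposited raw counts of reads per gene, made per the file headers with featureCounts 1.5.0-p1 over GENCODE M9 exons, without strand (setting 0), ignoring marked duplicates and, by its defaults, reads that align to several places or overlap several genes. Whether duplicates had been marked is not given in the sources used here. Reads carry no molecular identifiers, so the floor covers counting error only. Exon length per gene was used as deposited.

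Symbols came from GENCODE M21 by gene ID (47224 of 47643 matched), and 0 sample columns belonged to other samples. The test was edgeR 4.0.16 run in R 4.3.3 (TMM, filterByExpr with a minimum count of 10, robust quasi-likelihood fit, threshold 0.05). Alternatives were RLE and upper quartile scaling, other filters, DESeq2 1.42.0, voom in limma 3.58.1, edgeR without robust estimation, a replicate block, leaving out libraries, and stricter thresholds. The chi-square statistic per degree of freedom between libraries of a group was 34.3 to 89.1, so none was a copy of another. Members and gene lists were chosen with earlier results of these data known. Values of all libraries are given for the network, for the 3 smallest adjusted p of each group, for calls in its rarer direction and for members not called (the 3 most abundant where over 3), and of each further list the 2 smallest adjusted p in each direction are named.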

Additional observations from a re-analysis of the deposited data

How the results depend on the processing

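Of the 51 genes' log2 fold changes under 15 other fits, 717 values kept direction and call, 19 lost the call, 6 gained it and 23 changed sign. Sign changes touched only genes that were not called. Leaving out 1 library gave a log2 fold change of -0.198 to 0.449 for Max, -0.129 to 0.166 for Mnt, -0.0710 to 0.186 for Nolc1, -0.125 to 0.0552 for Gnl3 and -0.111 to 0.134 for Ncl. With both replicates numbered 3 left out, it was -0.0553 for Max, 0.190 for Mnt and 0.143 for Ncl. With all genes of at least 1 count kept, it was 0.0359 for Mnt and 0.00820 for Ncl, and with limma-voom 0.0229 for Mnt and -0.00799 for Nolc1. Nolc1 was at -0.0146 with upper quartile scaling and at -0.0160 when at least 1 CPM was required in 3 libraries. Leaving out 1 library gave 4 to 8 members toward adult cells and a median log2 fold change of 0.52 to 0.65 over the members. With both replicates numbered 3 left out 5 members were called toward adult cells, and with an adjusted p under 0.01 there were 4. Requiring at least 2-fold left 5744 of all genes, 14 members toward embryonic and 3 toward adult cells, and 24 and 10 of the further genes, because fewer genes meet the fold. The cause of the other shifts was not tested. All genes together had a median of -0.02 with RLE and -0.04 with upper quartile scaling.

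The replicate numbers gave no positive pairing: same-numbered libraries of the groups correlated at -0.122, -0.0791 and -0.133 in their deviations from the group means. Differently numbered libraries correlated at -0.00221 to 0.101. Deviations from a group mean sum to 0, so these values depend on each other. Nothing in the labels ties same-numbered libraries. With the replicate block 29 members were called toward embryonic and 7 toward adult cells, without Ubtf, as were 91 and 27 of the further genes and 8848 of all genes. The block left the members' median log2 fold change at 0.52 and gave 0.00637 for Mnt and -0.00606 for Nolc1. Mycn, the member with the lowest level per exon length, exceeded the floor of 3 counts in every library.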
